A study of Mus musculus with 45 samples.

Results

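Ileum from mice that lack caspase-8 in intestinal epithelial cells (CASP8 IEC-KO) was compared with ileum from mice that carry the floxed gene without the deletion (Casp8 fl/fl). The members are the arrays whose titles give these genotypes with no further mutation: 5 CASP8 IEC-KO and 5 Casp8 fl/fl mice, 10 of the 45 arrays in the series, each from a different mouse. All 10 mice carry the floxed Casp8 allele, were 11 weeks old, were kept in a specific pathogen-free facility on regular chow, and differ by label only in the epithelial deletion. The sources used here do not give the driver of the deletion, the strain background, the sex or the litters. The p-values of the main fit set differences against the spread between mice within groups, pooled over all 9 groups. The other 35 arrays, in 7 groups, entered the fit as a measure of the spread between mice. They were FADD IEC-KO, Fadd fl/fl and groups with further mutations. In the latter FADD IEC-KO was combined with RIPK3 IEC-KO, Zbp1 -/- or Mlkl -/-, CASP8 IEC-KO with Mlkl -/-, and both with Mlkl -/-. All 35 mice were 11 weeks old too. Of these, FADD IEC-KO and Fadd fl/fl, 5 mice each, were also set beside the caspase-8 contrast; FADD IEC-KO mice lack the adaptor FADD in the same cells.

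Caspase-8 is the initiator protease of death receptor signalling. With FADD it starts apoptosis, and it also holds back necroptosis, an inflammatory form of cell death in which the kinase RIPK3 activates the pore-forming protein MLKL. The ileal epithelium renews itself from crypts, where Paneth cells lie between the stem cells and secrete antimicrobial alpha-defensins and lysozyme, while goblet cells make the mucus layer. Epithelial caspase-8 is known to be needed for Paneth cells to persist in mice, and its loss is known to lead to inflammation of the terminal ileum.

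Levels are log2 intensities, and differences are CASP8 IEC-KO minus Casp8 fl/fl on the log2 scale, given with the standard error of a limma fit over all 45 arrays. A gene was called, and is said to have risen or fallen, when its p-value adjusted over 19494 genes was under 0.05. Replicate numbers only name the mice, in the order of deposit. Array medians lay between 6.36 and 6.44, and arrays of the same group correlated across genes at 0.974 or more in CASP8 IEC-KO and 0.98 or more in Casp8 fl/fl. Markers of ileal epithelium were high in both groups: Epcam lay between 11.91 and 12.15 in the controls and between 12.10 and 12.23 in CASP8 IEC-KO, and the ileal bile acid carrier Fabp6 between 12.43 and 12.77 and between 12.23 and 12.71. Of 12 genes of epithelial identity 1 was called, the keratin Krt8. Y-linked genes were high in 2 of 5 mice in each group. The titles carry numbers of unstated meaning, under 100 for 3 CASP8 IEC-KO and 4 Casp8 fl/fl mice and of 200 and over for 2 and 1; differences within these 2 series are given beside the main results.

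In CASP8 IEC-KO all 22 alpha-defensins and 12 of 20 goblet cell genes fell, while 7 of 22 glutathione transferases, the metallothioneins Mt1 and Mt2, 9 of 21 hypoxia and glycolysis genes and 7 of 20 genes of repairing epithelium rose. Without CASP8 IEC-KO replicate 2 the last 2 counts were 1 and 3, and that of goblet cell genes was 6. In all 813 genes were called (4.17% of those tested); 564 rose (2.89%) and 249 fell (1.28%). At least 2-fold, 58 genes were called (0.298%), and here falls outnumbered rises, 38 against 20. The values of the 5 and 5 mice did not overlap in 832 genes (4.27%), higher in 525 (2.69%) and lower in 307 (1.57%), and 426 of these were called. In most called genes the CASP8 IEC-KO mice differed more among themselves than the controls did. The SD was larger in CASP8 IEC-KO in 540 of the 813 called genes, against 8834 of all 19494 genes (45.3%). The called genes were picked for their change in the same mice. A limma fit of these 10 arrays alone, which takes the spread from these mice only, called 10 genes (0.0513%), all among the 813. They were Mt1, Gsta3, Gsta2, Serpinb5, Il1rn, Egln3, Akr1c13 and a predicted gene, which rose, and Ano7 and Slc6a8, which fell. All other calls given here rest on the spread pooled over 9 groups. Leaving out CASP8 IEC-KO replicate 1 brought 1354 calls (952 rose, 4.88%, and 402 fell, 2.06%), and leaving out replicate 2 brought 204 (133 rose, 0.682%, and 71 fell, 0.364%), of which 201 were among the 813. Of the other 8 mice, leaving out CASP8 IEC-KO replicate 3 or 4 or Casp8 fl/fl replicate 1, 2 or 3 moved the count by more than 1.5 times too, to 459, 460, 538, 410 and 421.

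Casp8 itself was examined first. It stood at 11.24, 11.33, 11.33, 11.35 and 11.49 in the Casp8 fl/fl mice and at 10.89, 9.88, 10.20, 9.63 and 10.57 in CASP8 IEC-KO replicates 1 to 5. Every CASP8 IEC-KO mouse lay below every control, but replicate 1 lay close to them. The difference was -1.12 ± 0.14 (adjusted p = 3.2e-06, limma; exact two-sided permutation p = 0.00794 over 252 splits, the smallest that 5 against 5 allow), -0.99 within title numbers under 100 and -1.39 within those of 200 and over. Whole ileum also holds cells outside the epithelium that keep Casp8, and where the probe lies relative to the floxed part is not given.

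Among 27 genes of the death receptor and necroptosis pathway 3 rose and 1, Casp8, fell, where 2.89% of all genes rose and 1.28% fell. Ripk3, the kinase of necroptosis, was 7.75, 8.05, 8.07, 7.91 and 8.35 in the controls and 8.42, 9.27, 8.91, 8.99 and 9.09 in CASP8 IEC-KO. The groups did not overlap, and Ripk3 rose by 0.91 ± 0.16 (adjusted p = 0.000746), also without any single mouse. Tnfrsf10b, the receptor of the death ligand TRAIL, rose by 0.63 ± 0.16 (adjusted p = 0.018), with CASP8 IEC-KO replicate 1 inside the control range at 6.21; the call was lost without CASP8 IEC-KO replicate 2 (0.0995) or 3 (0.0561) or Casp8 fl/fl replicate 2 (0.0841). The mitochondrial phosphatase Pgam5 rose by 0.36 ± 0.10, a call that held in 3 of the 10 fits without 1 mouse. The list had 2 calls without CASP8 IEC-KO replicate 2 or 3 or Casp8 fl/fl replicate 2. Mlkl, the executioner, was higher by 0.37 ± 0.19 (adjusted p = 0.299) and did not pass. The nucleic acid sensor Zbp1 was 6.87 to 7.92 in the controls and 6.71 to 7.08 in CASP8 IEC-KO, a difference of -0.44 ± 0.29 (adjusted p = 0.437). Fadd differed by 0.02 ± 0.17, the caspase-8 regulator Cflar by 0.00 ± 0.10, the TNF receptor Tnfrsf1a by 0.03 ± 0.09 and Fas by -0.40 ± 0.14 (adjusted p = 0.0917). Of 23 genes of gasdermins and inflammasomes 1 rose, a count close to the share of all genes that rose. It was the DNA sensor Aim2, which rose by 0.72 ± 0.16 (adjusted p = 0.00519), without overlap and in every leave-out. The pore former Gsdmd differed by 0.09 ± 0.10, and the epithelial gasdermin Gsdmc2 by -0.86 ± 0.33 (adjusted p = 0.137). None of 14 BCL2 family genes and none of 6 death ligands was called by limma; the TRAIL gene Tnfsf10 was lower by 0.65 ± 0.26 (adjusted p = 0.146), and Tnf higher by 0.46 ± 0.25 (0.318).

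**Figure D1:**
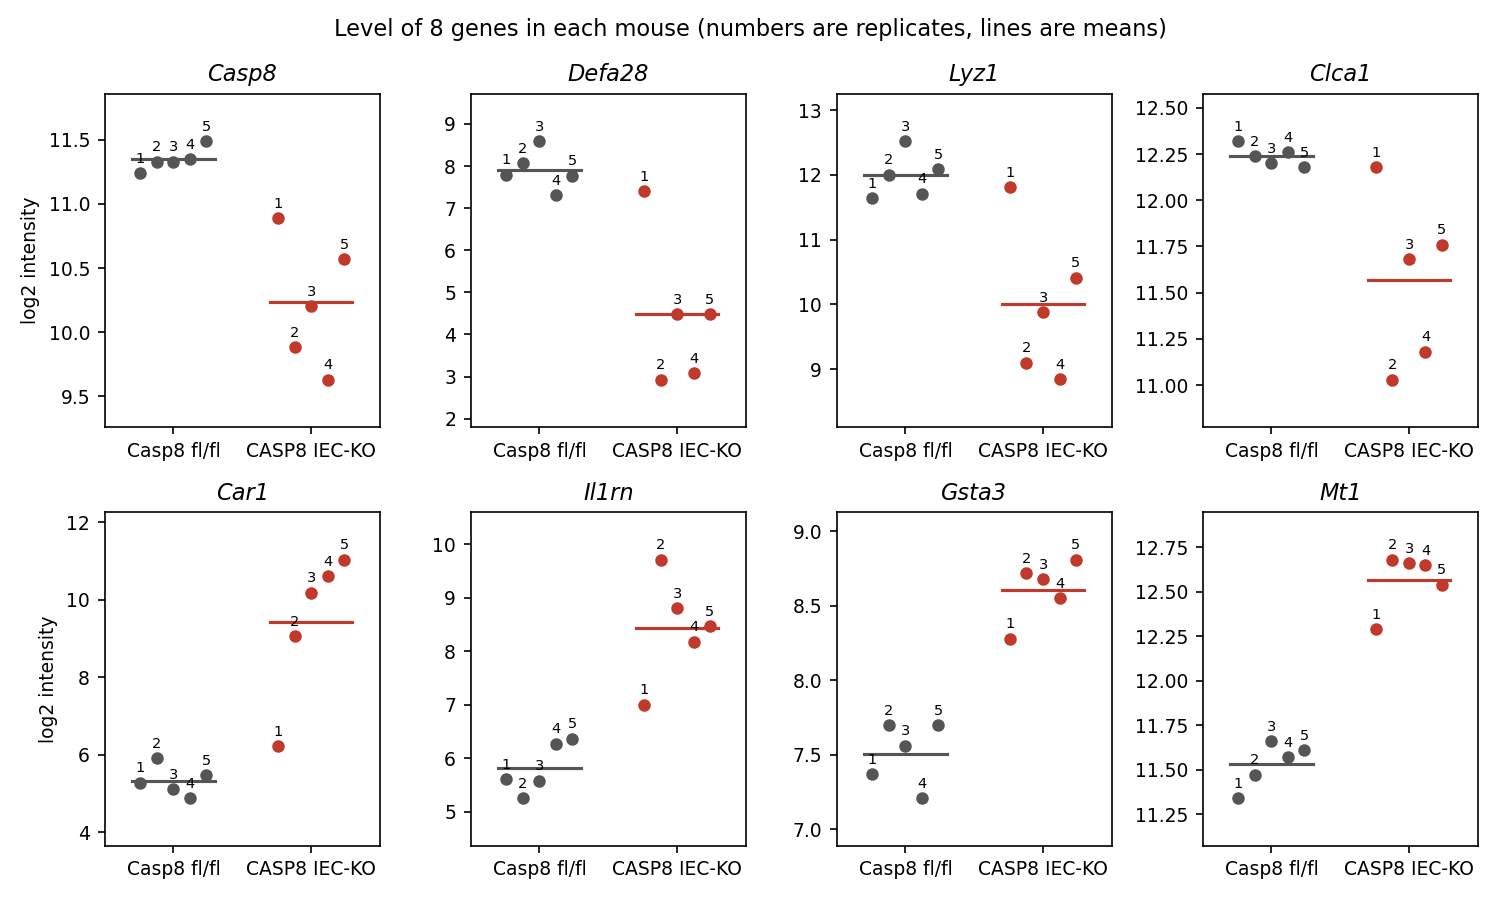
Level (log2 intensity, vertical axes of different range) of 8 genes in each of the 5 Casp8 fl/fl (grey) and 5 CASP8 IEC-KO mice (red); points are mice with their replicate number and lines are group means. CASP8 IEC-KO replicate 1 lies beside the controls for Defa28, Lyz1 and Clca1, at 7.40, 11.81 and 12.18, but apart from them for Gsta3 and Mt1, at 8.28 and 12.29.

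Alpha-defensins, the microbicidal peptides of Paneth cell granules, fell most. All 22 with a value fell (median -2.66, against -0.02 over all genes; 1.28% of all genes fell), from -1.22 for Defa27 to -3.43 for Defa28. They are not 22 independent measurements: 19 had distinct values, since Defa17 and Defa3, Defa20 and Defa32, and Defa2 and Defa33 had identical ones, and the family is so alike in sequence that probes can share signal. Defa28 stood at 7.79, 8.07, 8.59, 7.30 and 7.77 in the controls and at 7.40, 2.93, 4.48, 3.08 and 4.48 in CASP8 IEC-KO replicates 1 to 5. Replicates 2 to 5 lay far below every control, and replicate 1 within their range. The difference in Defa28 was -3.43 ± 0.48 (adjusted p = 3.33e-05), -4.16 without replicate 1 and -3.05 without replicate 2. Defa39 stood at 11.83, 12.15, 12.01, 11.80 and 11.73 in the controls and at 11.52, 7.64, 9.22, 7.84 and 9.79 in CASP8 IEC-KO. Here the groups did not overlap, yet replicate 1 was 0.20 below the lowest control. Defa39 fell by 2.70 ± 0.44 (adjusted p = 0.000217). Averaged over the list, the 5 CASP8 IEC-KO mice were shifted against the control mean by -0.21, -4.32, -2.34, -4.21 and -1.87, while the controls lay between -0.22 and 0.31. Replicate 1 therefore lay at the control level for the list as a whole, with 8 of 22 defensins below all controls against 22 of 22 in each of the other 4 mice. The values did not overlap in 8 of 22, all lower, against 1.57% of all genes. The median difference was -2.99 within title numbers of 200 and over, the series without replicates 1 to 3. Between 21 and 22 defensins were called without any single mouse and 22 with weights for the spread of each group, but 0 in the fit of the 10 arrays alone. In bulk tissue, fewer Paneth cells and less RNA per Paneth cell cannot be told apart.

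Other Paneth cell genes followed, but not all of them. Of 20, 8 fell and 0 rose (median -0.43): Mptx1, Mptx2, Ang4, Clps, Itln1, Lyz1, Habp2 and Nupr1. Lyz1, the lysozyme of Paneth cells, was 11.64, 12.00, 12.52, 11.71 and 12.09 in the controls and 11.81, 9.10, 9.88, 8.84 and 10.41 in CASP8 IEC-KO, and fell by 1.99 ± 0.32 (adjusted p = 0.000217). The mucosal pentraxin Mptx2 was 9.53, 10.06, 11.07, 8.99 and 10.41 in the controls and 9.47, 5.43, 6.38, 4.41 and 6.85 in CASP8 IEC-KO, a difference of -3.5 ± 0.65 (adjusted p = 0.00102). The microbicidal ribonuclease Ang4 fell by 2.66 ± 0.54 (adjusted p = 0.00277) and the lectin Itln1 by 2.14 ± 0.32 (8.31e-05). Replicate 1 lay within the control range for each of these 4 genes and the other 4 mice below it. The colipase Clps fell by 2.15 ± 0.39 and the lipase relative Pnliprp2 by 1.27 ± 0.31 (adjusted p = 0.0139; 0.0505 without CASP8 IEC-KO replicate 2 and 0.0591 without Casp8 fl/fl replicate 3). Of 11 pancreatic acinar genes 0 were called by limma (median -0.02), and the part of pancreatic cells in these values was not tested. Others of the list did not pass. The lectin Reg3g was 11.61 to 12.82 in the controls and 11.88 to 12.51 in CASP8 IEC-KO, a difference of -0.06 ± 0.19 (adjusted p = 0.905), and Reg3b differed by -0.06 ± 0.12 (0.821). The secretory transcription factor Xbp1 differed by 0.01 ± 0.10. The defensin-processing protease Mmp7 was 8.25 to 9.49 in the controls and 7.93 to 8.58 in CASP8 IEC-KO, a difference of -0.77 ± 0.25 (adjusted p = 0.0653). Without Casp8 fl/fl replicate 3 or CASP8 IEC-KO replicate 2, 7 of the list fell.

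Goblet cell genes fell in 12 of 20, with 0 rising (median -0.37), by far smaller amounts. Clca1, a protein of the mucus gel, was 12.32, 12.24, 12.20, 12.26 and 12.18 in the controls and 12.18, 11.03, 11.68, 11.18 and 11.76 in CASP8 IEC-KO. To 2 decimals replicate 1 matched the lowest control, the others were lower, and Clca1 fell by 0.67 ± 0.12 (adjusted p = 0.00105). The mucus protein Fcgbp fell by 0.58 ± 0.10 (adjusted p = 0.000757), the mucin Muc2 by 0.29 ± 0.06 (0.00472) and the chemokine Ccl6 by 1.05 ± 0.17 (0.000217). The kallikrein Klk1 fell by 0.65 ± 0.16 (adjusted p = 0.0138), with CASP8 IEC-KO replicate 1 at 11.01, below all controls, and lost its call without replicate 2 (0.082). Tff3, Zg16, Sytl2, Bcas1, Tpsg1, Spink4 and Atoh1 also fell, by 0.36 to 0.51; Atoh1, the transcription factor of secretory cells, held in 4 of 10 leave-outs. The lineage factor Spdef (-0.10) and the disulfide isomerase Agr2 (0.08) were not called. Without CASP8 IEC-KO replicate 2 the list had 6 calls, and without replicate 3 it had 8. Muc13, a mucin also made by enterocytes, differed by -0.03 ± 0.06.

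Other epithelial lineages moved less. Of 19 enteroendocrine genes 2 fell, where 1.28% of all genes fell. They were the hormone genes Pyy, by 0.53 ± 0.12 (adjusted p = 0.00728), and Gcg, by 0.78 ± 0.19 (0.0153). Pyy was 8.80 to 9.06 in the controls and 8.58, 8.05, 8.35, 8.45 and 8.62 in CASP8 IEC-KO, so that all 5 mice lay below the controls. Neither passed without CASP8 IEC-KO replicate 2 (0.0563 and 0.099), and Gcg did not without replicate 3 (0.0501). None of 13 tuft cell genes and none of 16 intestinal stem cell genes was called by limma; the stem cell receptor Lgr5 differed by 0.01 ± 0.12 (adjusted p = 0.98). Lists of sugar digestion and transport (15 genes), peptide digestion and transport (14), cholesterol synthesis (16) and proximal small intestine (15) had 0 calls each by limma, but single mice lay outside the controls. The mean of sugar genes was shifted by 0.43, -0.75, -0.09, -0.26 and 0.02 in CASP8 IEC-KO replicates 1 to 5, against -0.19 to 0.15 in the controls. That of peptide genes was shifted by 0.22, -0.60, -0.01, -0.04 and -0.03, against -0.03 to 0.06. In the ileal bile acid list 1 of 14 fell, the nuclear receptor Nr0b2 (-0.50 ± 0.15, adjusted p = 0.0451), which was 5.61 to 6.54 in the controls and 5.40 to 5.81 in CASP8 IEC-KO. That difference was 0.06 within title numbers of 200 and over, and the call held in 3 of 10 leave-outs.

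The largest rise was in Car1, a cytosolic carbonic anhydrase that is abundant in colon epithelium. Its level was 5.28, 5.92, 5.11, 4.89 and 5.48 in the controls and 6.22, 9.06, 10.19, 10.61 and 11.04 in CASP8 IEC-KO replicates 1 to 5. All 5 mice lay above the controls, replicate 1 only just. Car1 rose by 4.09 ± 0.70 (17.0-fold; adjusted p = 0.000451), by 3.19 within title numbers under 100 and by 5.35 within those of 200 and over. Of 19 colon-enriched genes Car1 rose and Ang4 fell. The others were not called, among them the water channel Aqp8 (-0.29 ± 0.18, adjusted p = 0.402) and the cytochrome P450 Cyp2c55. Cyp2c55 was 7.54, 6.13, 6.17, 7.17 and 6.39 in the controls and 7.44, 7.99, 8.65, 9.79 and 8.06 in CASP8 IEC-KO, higher than every control in 4 of 5 mice, with a difference of 1.71 ± 0.61 (adjusted p = 0.0983). The list had 2 rises without CASP8 IEC-KO replicate 1 or Casp8 fl/fl replicate 5. Of 16 carbonic anhydrases Car9 rose too, by 0.54 ± 0.13 (adjusted p = 0.0162; 0.0866 without CASP8 IEC-KO replicate 2, 0.0603 without replicate 4 and 0.0541 without Casp8 fl/fl replicate 2). The interleukin-1 receptor antagonist Il1rn was 5.61, 5.26, 5.58, 6.27 and 6.37 in the controls and 7.0, 9.71, 8.80, 8.18 and 8.47 in CASP8 IEC-KO, without overlap. It rose by 2.62 ± 0.40 (6.13-fold; adjusted p = 0.0001, and 0.0356 in the fit of the 10 arrays alone), and was the only 1 of 19 interleukin-1 family genes called. Nox1, the superoxide-producing oxidase of colon epithelium, was 4.31, 5.52, 6.19, 5.23 and 6.57 in the controls and 6.39, 8.73, 8.59, 8.13 and 8.62 in CASP8 IEC-KO. Replicate 1 lay inside the control range, and the rise was 2.53 ± 0.57 (adjusted p = 0.00797). F3, the tissue factor of blood clotting, rose by 1.0 ± 0.16 (adjusted p = 0.000156) without overlap, and the nuclear receptor Pparg by 0.96 ± 0.15 (8.31e-05).

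Glutathione transferases, which couple glutathione to reactive compounds, rose in 7 of 22, with 0 falling (median 0.31). Gsta3 was 7.37, 7.70, 7.56, 7.21 and 7.70 in the controls and 8.28, 8.72, 8.68, 8.55 and 8.81 in CASP8 IEC-KO. All 5 mice, replicate 1 included, lay at least 0.58 above the highest control. Gsta3 rose by 1.1 ± 0.14 (adjusted p = 7.82e-06; 0.0108 in the fit of the 10 arrays alone), by 1.1 and 0.97 in the 2 series of title numbers. Gsta2 was 8.79, 8.56, 8.44, 8.57 and 8.75 in the controls and 9.37, 10.64, 10.45, 9.76 and 10.20 in CASP8 IEC-KO, a rise of 1.46 ± 0.19 (6.15e-06; 0.0284 in the fit of the 10 arrays alone). Gsta4 rose by 1.24 ± 0.22 (adjusted p = 0.000659). Gstm1, Gstp1, Gsto1 and Mgst3 rose by 0.31 to 0.62; Gstm1 and the alpha genes have close relatives with which probes can share signal, and Gstm1 lost its call in 6 of 10 leave-outs. The count was 4 without CASP8 IEC-KO replicate 3 and 5 to 9 in the other leave-outs. Among 24 other targets of NRF2, the transcription factor that answers oxidants and electrophiles, 7 rose and 0 fell (median 0.26): Akr1b8, Nqo1, Gclc, Gclm, Cbr1, Abcc4 and Txnrd1. The aldo-keto reductase Akr1b8 was 6.45, 7.67, 6.64, 6.69 and 7.28 in the controls and 7.32, 9.32, 9.02, 8.17 and 9.05 in CASP8 IEC-KO, and rose by 1.63 ± 0.32 (adjusted p = 0.00221). The quinone reductase Nqo1 rose by 0.58 ± 0.11 (0.00132) without overlap. Heme oxygenase Hmox1 (0.34) and the gene of NRF2 itself, Nfe2l2 (0.02), were not called. This list had between 2 calls, without Casp8 fl/fl replicate 2, and 9, without CASP8 IEC-KO replicate 1. Without CASP8 IEC-KO replicate 2 or 4 or Casp8 fl/fl replicate 3 it had 3, and without CASP8 IEC-KO replicate 3 or 5 it had 4.

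Promoters were searched for the antioxidant response element bound by NRF2, as TGACNNNGC on either strand. A RefSeq window of 250 bases before to 50 after the start (GRCm38.p6) was given for 15683 of the 19494 genes. The element was in 15% of all these windows, in 18.9% of the 482 windows of genes that rose and in 15% of the 180 of genes that fell. It was in 1 of 6 windows of the glutathione transferases that rose (Gsta3) and in 3 of 6 of the other NRF2 targets that rose (Abcc4, Gclm and Txnrd1). In the whole lists, called or not, it was in 4 of 20 windows of glutathione transferases and in 8 of 20 of the other NRF2 targets. The AP-1 site TGAGTCA, which can overlap the element, was in 5.52%, 5.39% and 5% of all, rising and falling windows. The 250 bases before the start of Gsta3, at chr1:21240335-21240584 on the plus strand, and of Gclm, at chr3:122245307-122245556 on the plus strand, are shown with the match in capitals; it lies 121 bases before the start in Gsta3 and 134 before it, on the minus strand, in Gclm.
Gsta3: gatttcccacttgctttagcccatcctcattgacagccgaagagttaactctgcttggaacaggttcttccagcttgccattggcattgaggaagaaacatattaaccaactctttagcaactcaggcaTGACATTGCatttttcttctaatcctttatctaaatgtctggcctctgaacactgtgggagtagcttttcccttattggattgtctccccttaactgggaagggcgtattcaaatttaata
Gclm: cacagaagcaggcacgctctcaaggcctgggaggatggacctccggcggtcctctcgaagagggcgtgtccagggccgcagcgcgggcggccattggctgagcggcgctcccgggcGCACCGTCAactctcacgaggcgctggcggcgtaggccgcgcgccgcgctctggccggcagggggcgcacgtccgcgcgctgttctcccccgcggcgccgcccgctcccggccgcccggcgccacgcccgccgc
A match is a sequence of letters and not evidence of binding.

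Of the metallothioneins, small proteins that bind zinc and copper, Mt1 and Mt2 rose, and Mt3 (0.02) and Mt4 (0.09) were not called. Mt1 was 11.34, 11.47, 11.66, 11.57 and 11.61 in the controls and 12.29, 12.68, 12.66, 12.65 and 12.54 in CASP8 IEC-KO. The groups lay 0.63 apart at their nearest mice, replicate 1 stood with the other CASP8 IEC-KO mice, and the SD was 0.16 against 0.13 in the controls. Mt1 rose by 1.04 ± 0.09 (2.05-fold; adjusted p = 8.59e-10, and 0.00387 in the fit of the 10 arrays alone, the smallest of either fit). Mt2 was 9.70, 10.24, 10.83, 10.16 and 10.88 in the controls and 10.97, 11.18, 11.18, 11.52 and 11.42 in CASP8 IEC-KO, again without overlap, and rose by 0.89 ± 0.24 (0.0275). The call of Mt2 was lost without CASP8 IEC-KO replicate 2, 4 or 5 or Casp8 fl/fl replicate 1, 2 or 4 (adjusted p from 0.0543 to 0.1). Slc39a5, a zinc importer of the basolateral membrane, fell from 9.31 to 9.76 in the controls to 8.99 to 9.18 in CASP8 IEC-KO (-0.52 ± 0.12, adjusted p = 0.0106). The other genes among 13 for metallothioneins and zinc transporters were not called. Metal response elements, searched as TGCACNC and TGCGCNC on either strand, were in 33.3% of all windows, in 39.2% of those of rising and in 31.7% of those of falling genes. The 250 bases before the starts of both metallothionein genes are shown with these matches in capitals: Mt1 at chr8:94178839-94179088 and Mt2 at chr8:94172368-94172617 of GRCm38.p6, both on the plus strand. In these bases Mt1 holds 1 match, 23 bases before the start, and Mt2 holds 3, at 223, 128 and, on the minus strand, 50 bases before it. The windows used for the shares hold further matches after the start in both genes, which are not shown.
Mt1: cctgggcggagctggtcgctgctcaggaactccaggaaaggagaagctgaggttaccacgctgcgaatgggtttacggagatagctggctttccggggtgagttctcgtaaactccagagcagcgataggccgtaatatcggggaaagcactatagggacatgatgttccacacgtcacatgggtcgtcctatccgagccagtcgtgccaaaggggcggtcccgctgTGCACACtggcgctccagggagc
Mt2: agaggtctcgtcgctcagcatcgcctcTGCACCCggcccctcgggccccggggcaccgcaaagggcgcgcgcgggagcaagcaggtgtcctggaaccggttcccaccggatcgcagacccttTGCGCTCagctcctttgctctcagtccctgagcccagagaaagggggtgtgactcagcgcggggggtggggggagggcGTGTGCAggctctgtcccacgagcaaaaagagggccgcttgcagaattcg
The motif was chosen after the metallothionein values were seen.

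Genes of fetal-like and repairing epithelium rose in 7 of 20, with 0 falling (median 0.19): Il1rn, S100a6, Anxa1, Plaur, Ereg, Krt7 and Krt8. S100a6, a calcium-binding protein, was 8.75, 8.21, 8.66, 9.01 and 8.44 in the controls and 9.18, 10.52, 10.23, 10.02 and 9.80 in CASP8 IEC-KO, and rose by 1.33 ± 0.19 (adjusted p = 5.18e-05). Annexin Anxa1 was 6.99 to 7.76 in the controls and 7.54, 10.11, 8.23, 7.95 and 8.54 in CASP8 IEC-KO. The rise of 1.22 ± 0.33 (adjusted p = 0.0284) leaned on replicate 2: without it the difference was 0.81 (0.187), and the call was also lost without Casp8 fl/fl replicate 1, 2 or 3. Plaur, the urokinase receptor, rose by 0.99 ± 0.29 (adjusted p = 0.0437), a call that held only without CASP8 IEC-KO replicate 1 among the 10 leave-outs (0.0501 to 0.238 in the others). Ereg, an EGF receptor ligand, rose by 0.72 ± 0.16 (adjusted p = 0.00712; 0.0606 without CASP8 IEC-KO replicate 2). Other markers of this state, such as Clu (-0.01), Msln (-0.07) and Ly6c1 (-0.04), were not called. The list had 8 calls without CASP8 IEC-KO replicate 1, 3 without replicate 2, and 4 without Casp8 fl/fl replicate 2. The serpin Serpinb5 was 6.75, 6.0, 7.10, 7.14 and 7.12 in the controls and 8.34, 8.89, 8.37, 8.03 and 8.21 in CASP8 IEC-KO. It rose by 1.55 ± 0.20 (adjusted p = 6.15e-06; 0.0284 in the fit of the 10 arrays alone), with replicate 1 as high as the others and as the only 1 of 12 serpin B genes called. Where 2.89% of all genes rose, 4 of 12 S100 genes did, S100a6, S100a16, S100a11 and S100a10, and 4 of 12 annexins, Anxa1, Anxa7, Anxa4 and Anxa2. These counts fell to 1 and 0 without CASP8 IEC-KO replicate 2 and likewise without Casp8 fl/fl replicate 2. They were 2 and 1 without Casp8 fl/fl replicate 1 or 3, and annexins had 1 call without CASP8 IEC-KO replicate 3 or Casp8 fl/fl replicate 4 and 2 without CASP8 IEC-KO replicate 4 or 5. Among keratins and junction genes Krt7 (0.60 ± 0.13), Krt18 (0.43 ± 0.11) and Krt8 (0.22 ± 0.05) rose, 3 of 23. Only Krt7 was called without CASP8 IEC-KO replicate 2 and without Casp8 fl/fl replicate 2.

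Hypoxia and glycolysis genes rose in 9 of 21, with 0 falling (median 0.21). Egln3, the oxygen-sensing hydroxylase that HIF induces, was 8.61 to 9.0 in the controls and 9.21, 9.99, 9.70, 9.80 and 9.91 in CASP8 IEC-KO. It rose by 0.94 ± 0.16 (adjusted p = 0.000283; 0.0356 in the fit of the 10 arrays alone) and was the only member called without CASP8 IEC-KO replicate 2. The others were the hexokinase Hk1 (0.75 ± 0.18), Hif1a (0.72 ± 0.17), the glucose transporter Slc2a1 (0.63 ± 0.17), Car9, Pgk1, Pkm, Aldoa and Ldha. Slc2a1 was 8.10 to 8.63 in the controls and 8.70, 9.85, 8.95, 8.86 and 8.94 in CASP8 IEC-KO, with replicate 2 far above the rest; its call was lost without replicate 2 (0.182) or Casp8 fl/fl replicate 1 (0.0534) or 2 (0.0977). Without Casp8 fl/fl replicate 2 the list had 4 calls, and without CASP8 IEC-KO replicate 4 or Casp8 fl/fl replicate 1 it had 6. Vegfa (-0.05) and Bnip3 (-0.03) were not called. Among 22 immediate early genes 3 rose and 1 fell, where 2.89% of all genes rose and 1.28% fell. Egr1 (1.22 ± 0.27, adjusted p = 0.00581), Junb (0.46 ± 0.09, 0.00274) and Dusp5 (0.46 ± 0.13, 0.0396) rose and Klf4 fell (-0.36 ± 0.10, 0.0228). Dusp5 lost its call without CASP8 IEC-KO replicate 2, 3 or 4 or Casp8 fl/fl replicate 1 or 2 (0.0589 to 0.195), and Klf4 without CASP8 IEC-KO replicate 2 or 4 or Casp8 fl/fl replicate 2 or 3 (0.0637 to 0.082). Fos (0.27) and Jun (-0.01) were not called; the list had 7 calls without CASP8 IEC-KO replicate 1 and 2 without replicate 2 or Casp8 fl/fl replicate 2. Proliferation genes were higher in 26 of 27 (median 0.28), under quantile normalization and median centring too, but 2 rose over all genes tested, Pcna (0.38 ± 0.09) and Cdc6 (0.51 ± 0.14). Leaving out CASP8 IEC-KO replicate 1 gave 4 and replicate 2 gave 0, and the count was 1 without CASP8 IEC-KO replicate 3 or 4 or Casp8 fl/fl replicate 1 or 3. The proliferation marker Mki67 differed by 0.12. Other lists were as one-sided: ribosomal protein genes were higher in 15 of 15 (median 0.15) and respiratory chain genes in 19 of 20 (median 0.09), with 0 and 1 called.

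**Figure D2:**
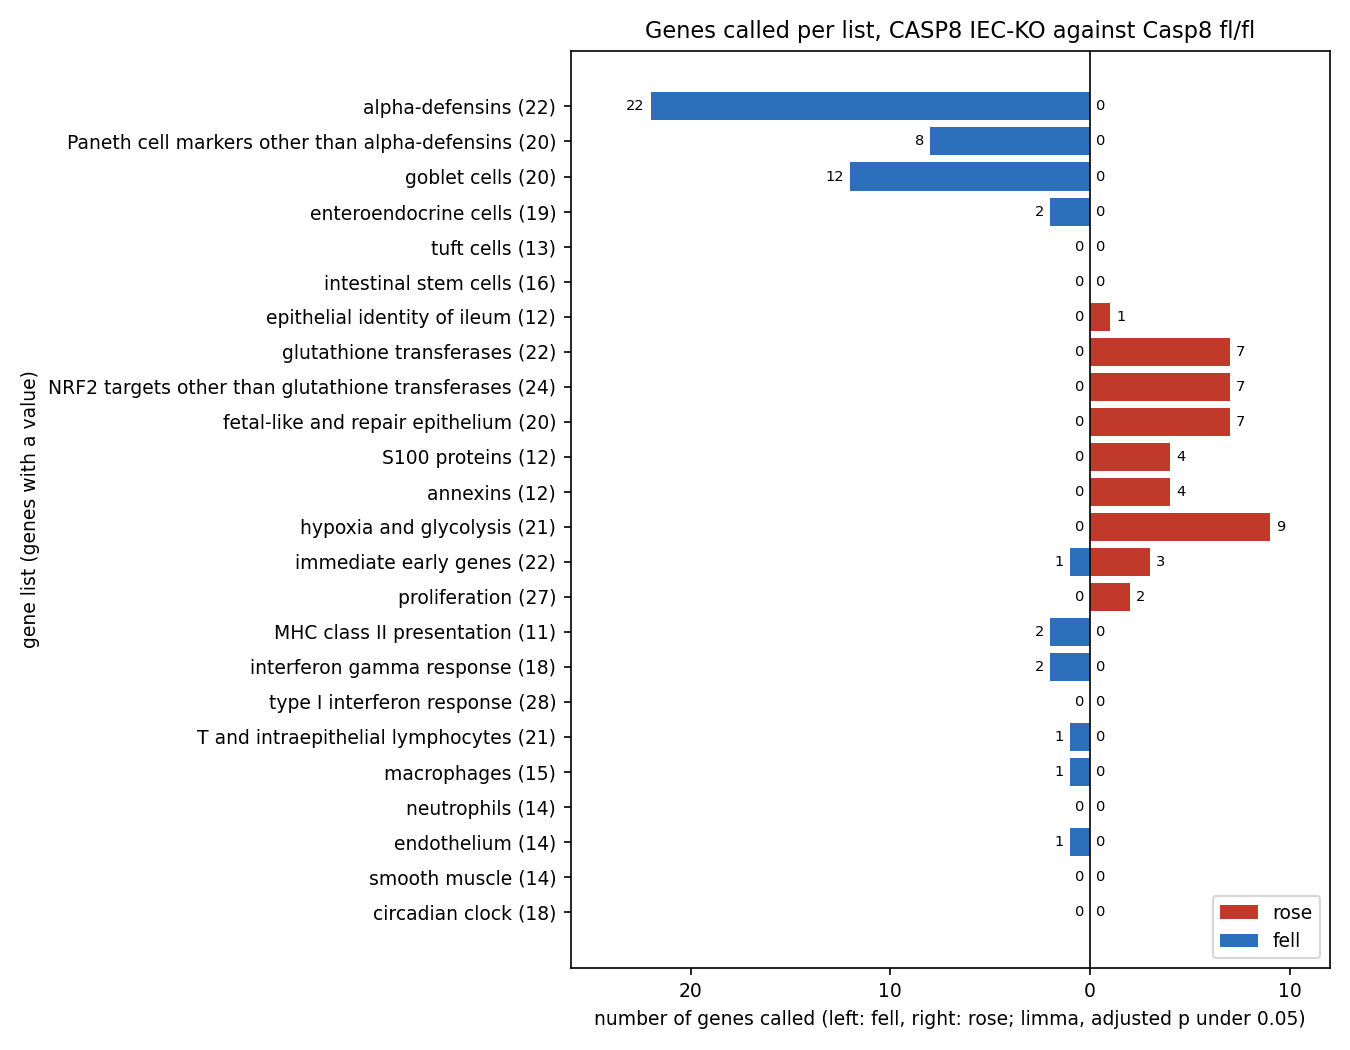
Number of genes called per list (horizontal axis; left and blue, fell; right and red, rose; limma adjusted p under 0.05), with the number of genes with a value in brackets. Falls fill the alpha-defensin list (22 of 22) and reach 12 of 20 in goblet cells, while the rises lie in glutathione transferases (7), NRF2 targets (7), fetal-like genes (7) and hypoxia and glycolysis (9).

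Antigen presentation and lymphocyte genes were lower, most of all in replicate 2. All 11 genes of MHC class II presentation were lower (median -0.87; 10 under quantile normalization), but 2 fell: H2-DMb2 (-1.17 ± 0.30, adjusted p = 0.0188) and the class II transactivator Ciita (-0.87 ± 0.26, 0.049). The class II chain H2-Ab1 was 11.27, 11.52, 11.20, 11.56 and 11.45 in the controls and 11.29, 8.84, 10.43, 10.19 and 10.60 in CASP8 IEC-KO, a difference of -1.13 ± 0.36 (adjusted p = 0.0622). Replicate 1 lay among the controls and the other 4 below them. Without replicate 1, 8 of 11 fell, where 2.06% of all genes fell. Without replicate 2 or Casp8 fl/fl replicate 2, 0 of 11 did, and without any other single mouse 1 fell. All 18 interferon gamma response genes were lower (median -0.66), and 2 fell. Ido1, the tryptophan-degrading enzyme, was 8.90 to 9.51 in the controls and 9.19, 6.11, 7.78, 6.79 and 7.62 in CASP8 IEC-KO (-1.62 ± 0.38, adjusted p = 0.0103; 0.0804 without replicate 2). The other was Ciita, so that the count was 0 without replicate 2 and 1 in the other leave-outs except that of replicate 1.

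Immune cell lists differed in how far they moved. Of 18 B and plasma cell genes 0 were called by limma (median -0.10). Of 12 dendritic cell genes 11 were lower (median -0.21) and 1 fell, the integrin Itgae, where 1.28% of all genes fell. That count was 0 without CASP8 IEC-KO replicate 2, 3 or 4 or Casp8 fl/fl replicate 2, 3 or 5. Of 21 T and intraepithelial lymphocyte genes 20 were lower (median -0.43) and 1 fell, which was Itgae again, a member of both lists (-0.73 ± 0.22, adjusted p = 0.0431; 4 of 10 leave-outs). Per mouse the mean of this list was shifted by 0.08, -0.85, -0.50, -0.44 and -0.25 in CASP8 IEC-KO, against -0.28 to 0.29 in the controls, and that of MHC class II by -0.19, -1.64, -0.59, -0.78 and -0.51, against -0.13 to 0.12. The T cell chain Cd3e differed by -0.63 ± 0.24 (adjusted p = 0.127) and Cd8a by -0.56 ± 0.33 (0.369). The part of cell numbers in the class II and interferon gamma values was not tested. Without CASP8 IEC-KO replicate 1, 4 lymphocyte genes fell, without replicate 5 3, without Casp8 fl/fl replicate 1 or 4 2, and without any other mouse 0. Among 15 macrophage genes Lyz2 fell by 1.7 ± 0.31 (adjusted p = 0.00107). Of this list 12 were lower (median -0.35). Lyz2, a lysozyme gene close in sequence to Lyz1, was 10.04 to 11.29 in the controls and 10.50, 8.02, 8.61, 8.23 and 9.28 in CASP8 IEC-KO. The macrophage receptors Csf1r (-0.39 ± 0.17, 0.207) and Adgre1 (-0.11 ± 0.15, 0.757) were not called. How much of the Lyz2 value comes from which cells was not tested. Without CASP8 IEC-KO replicate 1, 3 macrophage genes fell, and without Casp8 fl/fl replicate 1, 2. The prostaglandin synthase Ptgs2 was the only 1 of 22 inflammatory cytokine genes called. It was 5.98 to 6.65 in the controls and 6.43, 8.53, 6.80, 6.79 and 7.24 in CASP8 IEC-KO; the rise of 0.87 ± 0.23 (adjusted p = 0.025) was lost without CASP8 IEC-KO replicate 2 (0.176) or Casp8 fl/fl replicate 2 (0.0835) or 3 (0.0625).

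Several programmes showed no call. By limma 0 of 28 type I interferon genes, 0 of 20 unfolded protein response genes, 0 of 13 p53 targets, 0 of 16 genes of NF-kB and its feedback and 0 of 14 neutrophil genes were called, against 4.17% of all genes; 3653 genes had an unadjusted p under 0.05, and the fit of the 10 arrays alone called none of them either. The interferon-induced Isg15 was 5.56 to 6.35 in the controls and 5.97 to 6.84 in CASP8 IEC-KO (0.39 ± 0.28, adjusted p = 0.491), and the chaperone Hspa5 differed by 0.26 ± 0.09 (0.0988). The p53 target Cdkn1a differed by -0.03 ± 0.09 (0.876). Fibroblasts (17 genes), smooth muscle (14), B and plasma cells (18) and enteric neurons and glia (13) also had 0 calls.

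The 5 CASP8 IEC-KO mice did not share these changes evenly. Of the 564 genes that rose, 341 (60.5%) were above all 5 controls in replicate 1, against 551 (97.7%), 536 (95%), 541 (95.9%) and 507 (89.9%) in replicates 2 to 5. For the 249 that fell, 166 (66.7%) were below all controls in replicate 1 and 244, 238, 234 and 219 in the others. These shares describe genes that were called with all 5 mice. Replicate 1 thus lay outside the controls for many called genes but not for the Paneth cell lists. The mean of glutathione transferases was shifted by 0.15 in replicate 1, with the controls between -0.16 and 0.08, and that of goblet cells by -0.20, with the controls between -0.06 and 0.06. In the same mouse the means of alpha-defensins (-0.21), other Paneth cell markers (-0.27), hypoxia and glycolysis (-0.01), proliferation (0.01) and T cells (0.08) were inside the control range. Casp8 was highest in replicate 1 of the 5, at 10.89, followed by replicate 5 at 10.57 and replicate 3 at 10.20. The defensin shift was smallest in these mice in the same order, -0.21, -1.87 and -2.34, and larger, -4.32 and -4.21, in replicates 2 and 4, where Casp8 was 9.88 and 9.63. Between replicates 2 and 4 the order was reversed. The mice with the smallest defensin shifts, replicates 1 and 5, were also those with high Y-linked genes. Their Y-linked means were 8.13 and 8.02, against 2.93, 3.63 and 2.75 in replicates 2 to 4. No correlation was computed over 5 mice, and a link of the defensins with the Casp8 level or with the Y-linked level was not tested. Replicate 2 stood apart in other lists. It had the largest shift of fetal-like genes (0.99), S100 proteins (0.73), hypoxia and glycolysis (0.70) and immediate early genes (0.66), and the lowest MHC class II (-1.64), but not the highest Car1. Its weight per array, low where an array departs from its group, was 0.48, the lowest of the 45. Circadian clock genes were shifted by -0.51 in it, against -0.06 to 0.19 in the other CASP8 IEC-KO mice and -0.26 to 0.24 in the controls. What sets replicate 2 apart was not tested.

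**Figure D3:**
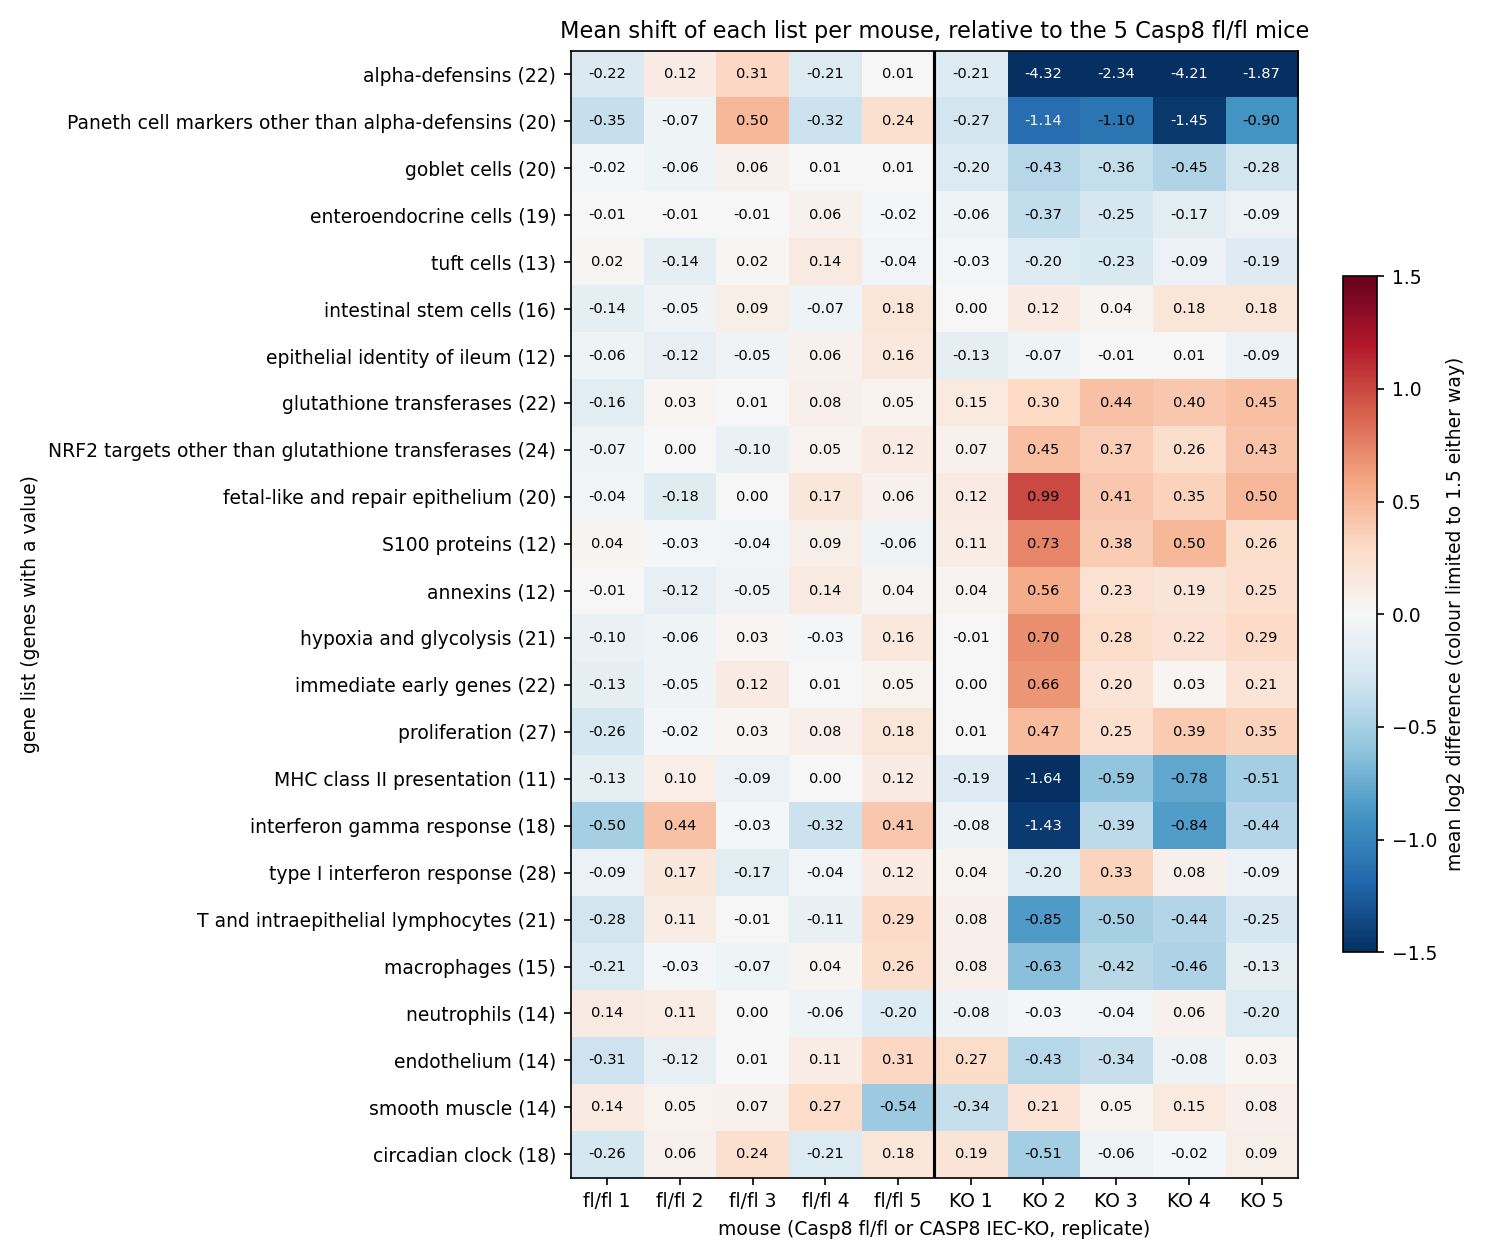
Mean log2 difference of each list from the mean of the 5 Casp8 fl/fl mice, per mouse (columns; colour limited to 1.5 either way, numbers are the values). Alpha-defensins are at -0.21 in CASP8 IEC-KO replicate 1 and between -4.32 and -1.87 in the other 4 mice, and replicate 2 has the strongest colours in most of the lists that rise.

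With each of the 10 mice left out in turn the 12 largest rises and 12 largest falls kept their direction, as did all 813 called genes. These genes were picked as the largest changes in the same mice, so that a kept direction is no test of them. Without CASP8 IEC-KO replicate 1 Mptx1 moved from -3.60 to -4.42 and Car1 from 4.09 to 4.89. Il1rn moved from 2.62 to 2.30 without replicate 2. The falls that passed in the fit of the 10 arrays alone were Ano7, a membrane protein of the anoctamin family (8.48 to 8.88 in the controls, 7.94 to 8.12 in CASP8 IEC-KO; -0.66 ± 0.11, adjusted p = 0.000217), and the creatine transporter Slc6a8 (12.17 to 12.45 and 11.41 to 11.76; -0.70 ± 0.18, 0.0198). Slc6a8 lost its call without CASP8 IEC-KO replicate 2 (0.0881) or Casp8 fl/fl replicate 3 (0.0524) in the pooled fit but passed in the fit of the 10 arrays alone (0.0284).

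**Figure D4:**
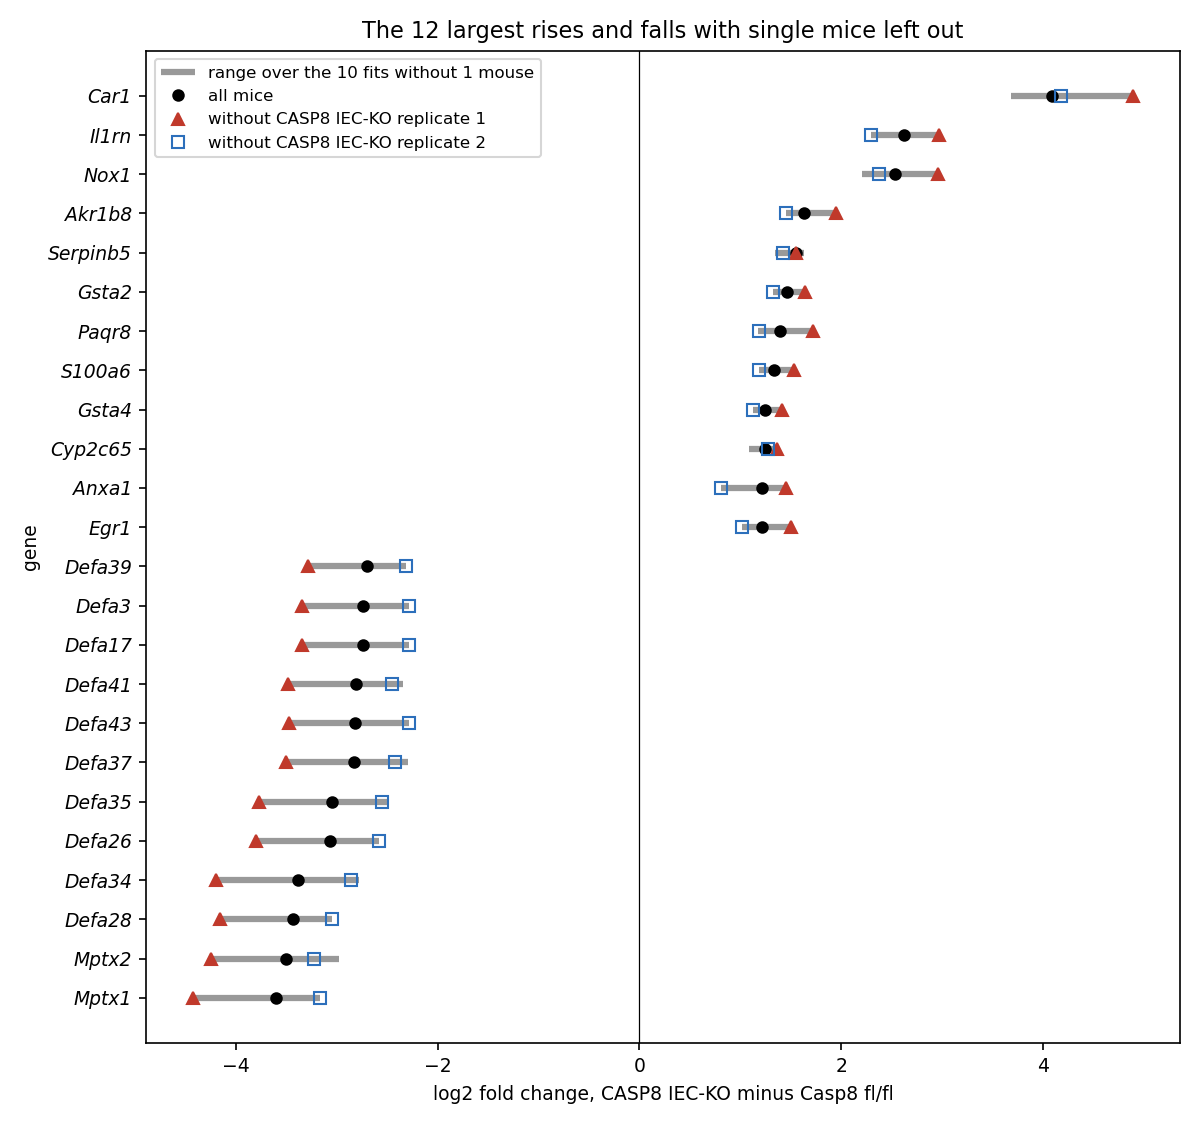
Log2 fold change (horizontal axis) of the 12 largest rises and 12 largest falls: all mice (black), without CASP8 IEC-KO replicate 1 (red triangles), without replicate 2 (blue squares) and the range over the 10 fits without 1 mouse (grey bars). Every bar stays on its side of 0, with the lowest value, -4.42, for Mptx1 and the highest, 4.89, for Car1. The genes were picked as the largest changes in these mice, and all 813 called genes kept their direction.

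These genes were then read in the FADD contrast, FADD IEC-KO minus Fadd fl/fl, which shares no array with the caspase-8 contrast and in which 727 genes were called (3.73%). The interaction, the test of whether the 2 differences differ, called 0 of 19494 genes (0%) by limma, with 1271 at an unadjusted p under 0.05. That count was 10 without Fadd fl/fl replicate 1, 6 and 4 without FADD IEC-KO replicates 5 and 4, and 1 each without FADD IEC-KO replicate 1, CASP8 IEC-KO replicates 1 and 5 and Casp8 fl/fl replicate 4. Defa28, Car1, Il1rn and Mt1 differed by similar amounts in the 2 contrasts. Defa28 differed by -3.43 ± 0.48 and -3.91 ± 0.48 (interaction 0.48 ± 0.68, adjusted p = 0.954) and Car1 by 4.09 ± 0.70 and 3.85 ± 0.70 (0.24 ± 0.99, 0.987). Il1rn differed by 2.62 ± 0.40 and 2.77 ± 0.40 (-0.16 ± 0.57, 0.987) and Mt1 by 1.04 ± 0.09 and 1.16 ± 0.09 (-0.12 ± 0.13, 0.944). The standard errors of the interaction, up to 0.99 for Car1, bound how small a difference could be seen. All 22 alpha-defensins fell in the FADD contrast too (1.92% of all genes fell), with a median of -2.57. Of 20 fetal-like and repair genes 5 rose and 1 fell there, against 7 and 0 here. Goblet cell genes fell in 3 of 20 there against 12 of 20 here, and their median interaction was -0.20, but no goblet gene passed; Fcgbp had an interaction of -0.37 ± 0.15 with an adjusted p of 0.654. MHC class II genes fell in 0 of 11 there, with a median interaction of -0.58, and glutathione transferases rose in 3 of 22 (1.81% of all genes rose), with a median interaction of 0.21; none of these genes passed either.

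The smallest p-values of the interaction lay just above the threshold. Casp8 (-0.99, adjusted p = 0.0637) and Fadd (1.1, 0.0945) are the deleted genes themselves. Gpr137, a membrane protein of lysosomes, rose by 0.42 ± 0.11 after loss of caspase-8 and fell by 0.39 ± 0.11 after loss of FADD (interaction 0.81 ± 0.16, adjusted p = 0.0637). The rise was lost without CASP8 IEC-KO replicate 4 (0.065) or Casp8 fl/fl replicate 1 (0.0708), 2 (0.0596) or 3 (0.0798). The repressor Etv3 was 8.57 to 8.88 in the controls and 7.92 to 8.42 in CASP8 IEC-KO and fell by 0.55 ± 0.13, whereas it was higher by 0.38 ± 0.13 in the FADD contrast (adjusted p = 0.0972; interaction -0.93 ± 0.19, 0.0803). Slc6a8 fell by 0.70 ± 0.18 here and was higher by 0.52 ± 0.18 there (interaction -1.21, 0.0803). Ido1 fell by 1.62 ± 0.38 here and differed by 0.23 ± 0.38 there (-1.85 ± 0.53, 0.391). In the opposite sense, Tnf was higher by 0.46 ± 0.25 here and rose by 1.44 ± 0.25 after loss of FADD (-0.98 ± 0.35, 0.566), and Apoa4 by 0.68 ± 0.35 and 1.98 ± 0.35 (-1.30, 0.615).

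**Figure D5:**
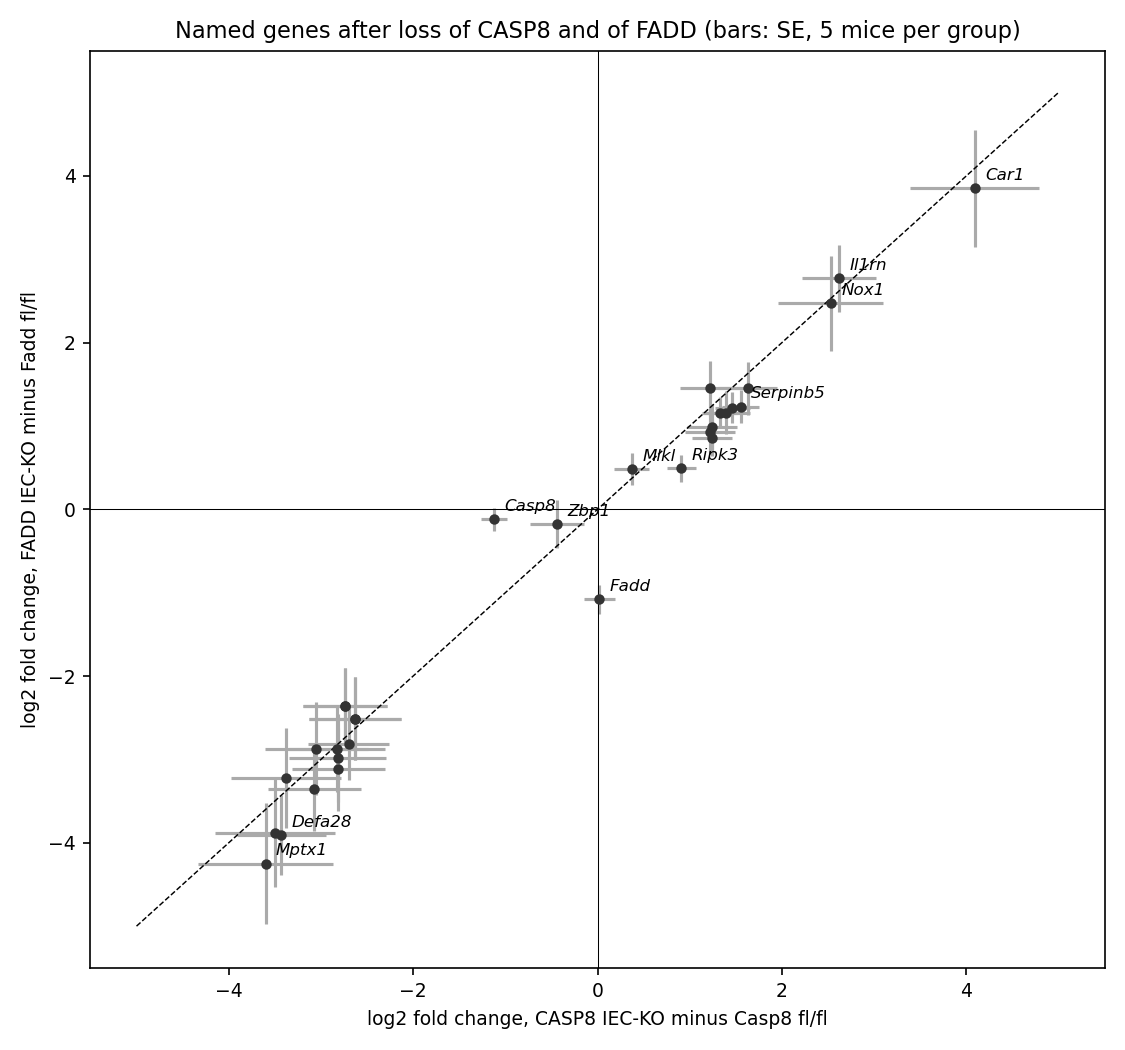
Log2 fold change after loss of CASP8 (horizontal axis) and of FADD (vertical axis) for the targeted genes and the largest rises and falls of the caspase-8 contrast, with standard errors (5 mice per group) and the line of equal change. Most points lie near the line; Casp8, at -1.12 and -0.12, and Fadd, at 0.02 and -1.08, lie off it.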

How the data were processed

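Whole ileum of 45 mice, 1 array each, was measured; the deposited values are log2 intensities per probe, for which the submitters' processing notes name Affymetrix Transcriptome Analysis Console and Expression Console. The summarization method, tool versions and genome build are not given in the sources used here. Array medians were alike (6.36 to 6.44), so the values were used as deposited; the number of arrays limits the precision.

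Of 22142 probes 19527 had 1 gene symbol, none several and 2615 none; the probe with the highest mean over all arrays was kept for each of 19494 genes. Close gene copies can share probes. Samples were grouped by the genotype in their titles. A limma (3.58.1, R 4.3.3) linear model with 1 mean per group over all 45 arrays gave CASP8 IEC-KO minus Casp8 fl/fl, the FADD contrast and their interaction, with empirical Bayes and Benjamini-Hochberg adjustment over all genes (threshold 0.05). The script was tested on simulated data. Genes named were 5 targeted genes, the 12 largest rises and falls that passed, the 6 largest each way without overlap, up to 4 called members of each list (else its brightest member) and the 3 smallest interaction p-values, leaving out predicted names; any others were chosen after their values were seen. Members and lists were chosen with earlier results of these data known. Promoter windows came from RefSeq tables of GRCm38.p6. Alternatives were other fits, weights, covariates (title number series, sex-linked and clock gene indices), scalings, filters, probe rules and each mouse left out. The metal response element was added after the data were seen. Probes without a symbol entered no list, and groups with further mutations are not reported.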

Additional observations from a re-analysis of the deposited data

Results flagged for a closer look

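In groups of 5 mice, a mouse was picked out by its gap to the nearest other, divided by the range of the 5 values. This ratio had to exceed Dixon's 95% critical value of 0.71. By chance it does so in about 1 of 20 groups, and 15 of 232 were picked out. Among CASP8 IEC-KO mice, replicate 1 lay apart, toward the controls, for Nox1 (6.39), Pnliprp2 (7.79) and Pparg (7.66), and was the lowest for the smooth muscle actin Acta2 (11.33). Replicate 2 lay apart for the glucose transporter Slc2a1 (9.85) and the chemokine Ccl25 (7.88). It was lowest for the aminopeptidase Anpep (13.15) and for Tnfrsf11a (7.81). Among Casp8 fl/fl mice, replicate 5 was highest for Mlkl (8.98) and lowest for Acta2 (11.04) and Elane (5.81). Replicate 3 was highest for Defa43 (11.6) and replicate 2 lowest for Gclc (7.99). Replicate 1 was lowest for Slc39a5 (9.31) and highest for Birc3 (9.82). Among 2615 probes without a gene symbol, which entered no comparison above, 86 (3.29%) were called in a fit of all probes; 53 rose and 33 fell.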

How the results depend on the processing

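No paired analysis was possible because the replicate numbers only follow the order of deposit and the numbers in the titles are not shared between the groups. The 813 calls became 10 in the fit of these 10 arrays alone, which has fewer arrays to estimate the spread from (3134 genes had an unadjusted p under 0.05 there), 1450 with the clock index as a covariate, 416 with title numbers under 100 alone and 10 with those of 200 and over alone, the last 2 with fewer mice. They ranged from 204, without CASP8 IEC-KO replicate 2, to 1354, without replicate 1. Under the other settings the count lay between 632 (a weight per group) and 1216 (a weight per array); quantile normalization gave 817, with 62.5% rising against 69.4%, and median centring 1021, with 77.7% rising. The interaction went from 0 calls to 11 with a weight per array, 6 with a trended robust prior, 4 with the clock index, 4 with quantile normalization and 7 among genes with a mean of at least 5, and ranged from 0 to 10 without single mice; except in the last filter, which tests fewer genes, the cause was not tested. Of 86 named calls 43 passed without each of the 10 mice, and all 86 kept their direction there, as did all 813 called genes. The reversed value was Nr0b2, 0.06 within title numbers of 200 and over. A difference of small size in dim genes is limited by 5 mice per group.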
